A study of Arabidopsis thaliana with 16 samples.

Results

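The step from meristemoid to guard mother cell (GMC) was examined by comparing ATAC-seq libraries of the GMC state with those of the meristemoid (M) state. All 65351 transposase hypersensitive sites (THSs), short stretches of open chromatin, were compared over 7 of the 16 libraries of the series, 3 of GMC and 4 of M. The other libraries, 3 each of the protoderm (Proto), the meristemoid mother cell (MMC) and the mature guard cell (GC), entered the fit and are described only where they bear on this step. Nuclei came from 3-day-old whole seedlings of the Col-0 background of Arabidopsis thaliana by INTACT, in which a tag on the nuclear envelope of chosen cells is biotinylated so that their nuclei can be pulled out. All plants carried ACT2pro:BirA, a biotin ligase made in every cell. The GMC nuclei carried the tag (NTF) under the FAMA promoter, active in GMCs on their way to guard cells, and the M nuclei carried it under the MUTE promoter, active in late meristemoids on their way to GMCs. Each state is a different transgenic line, so cell state and line cannot be told apart. The MUTE and FAMA promoters of the transgenes match the genomic ones, and the 4 THSs that overlap the 3000 bp upstream of MUTE or FAMA were therefore kept apart.

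Stomata, the pores of the leaf, arise from a series of epidermal cells. A meristemoid divides asymmetrically a few times under SPCH, then MUTE ends these divisions and commits the cell to become a GMC. The GMC divides once symmetrically, and FAMA with the MYB proteins FLP and MYB88 closes that division and starts guard cell differentiation. Open chromatin marks DNA that is free of nucleosomes, and in Arabidopsis much of it lies just upstream of gene starts and between genes.

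The sequences of 4 THSs are shown because they are among the largest changes and represent the kinds of place described below. They are the first 2 of the naming rule in each direction of at most 300 bp, except that THS_01182, the third largest gain, was passed over for THS_35049 because it lies in the 3' UTR exon of AT1G05540. They were read from the plus strand of the TAIR10 genome. Capitals mark the words found among 10 searched on both strands in every THS, namely the GA repeat GAGAGAGA, the G-box CACGTG, the GATA word AGATAA, the epidermal L1 box TAAATGTA, the telo-box AAACCCTA, the site II element TGGGCC, the E2F word TTTCCCGC, the homeodomain word CAATNATTG, the W-box word TTGACC of WRKY factors and the heat shock word TTCNNGAA. GGTCAA is TTGACC on the other strand.
THS_59752, higher in GMC, in a coding exon of ADR1-L3 (AT5G47280), chr5:19193753-19193925: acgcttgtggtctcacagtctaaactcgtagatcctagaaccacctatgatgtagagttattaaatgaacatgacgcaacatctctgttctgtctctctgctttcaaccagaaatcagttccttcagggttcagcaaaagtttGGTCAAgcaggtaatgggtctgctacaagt
THS_35049, higher in GMC, in the pseudogene AT3G28315, chr3:10579548-10579697: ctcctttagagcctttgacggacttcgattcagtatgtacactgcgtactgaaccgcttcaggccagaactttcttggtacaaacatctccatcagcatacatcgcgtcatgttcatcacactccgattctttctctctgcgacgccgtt
THS_21012, lower in GMC, the part upstream of the start of AT2G22795, chr2:9699945-9700106: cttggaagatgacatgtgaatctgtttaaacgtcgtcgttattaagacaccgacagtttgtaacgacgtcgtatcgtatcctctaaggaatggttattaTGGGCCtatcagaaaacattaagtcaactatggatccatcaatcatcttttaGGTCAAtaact
THS_23465, lower in GMC, intergenic, 6319 bp upstream of CLE4 (AT2G31081), chr2:13231574-13231831: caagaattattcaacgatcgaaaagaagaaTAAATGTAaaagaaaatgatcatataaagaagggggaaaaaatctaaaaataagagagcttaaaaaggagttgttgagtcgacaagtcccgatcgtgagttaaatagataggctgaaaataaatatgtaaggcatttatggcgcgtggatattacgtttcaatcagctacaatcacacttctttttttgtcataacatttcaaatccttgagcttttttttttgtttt
The first pair had GC contents of 42.8% and 48.0%, and the second pair 37.7% and 31.0%. No word was found in THS_35049, TGGGCC and TTGACC were found in THS_21012, and TAAATGTA in THS_23465. The words were marked over the whole stretch shown. Over the whole length of all 65347 THSs outside the MUTE and FAMA promoters, TTGACC was found in 14.7%, TGGGCC in 13.4% and TAAATGTA in 2.47%. In their central 150 bp these shares were 9.25%, 9.55% and 1.37%.

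Values are scaled cutcounts, that is, transposition events on a THS divided by 1 size factor per library. The libraries held 5015251 to 7593630 cutcounts on THSs in GMC and 3412226 to 13596509 in M. A single M library stood apart from its group. On the log2 scale M replicate 1 had a mean correlation over THSs of 0.915 with the GMC libraries and 0.877 with the other M libraries, whereas M replicates 2 to 4 had 0.804 to 0.879 with GMC and 0.895 to 0.923 with M. GMC libraries had 0.916 to 0.927 with each other and 0.817 to 0.881 with M. These correlations run over THSs, which are not independent replicates. Results that rest on M replicate 1 are given with and without it.

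At the FAMA and MUTE promoters each line was open where its own transgene has a copy. THS_33854, upstream of FAMA (chr3:8717797-8720014), had 3460, 3764 and 3712 scaled cutcounts in the GMC libraries, against 404, 291, 758 and 329 in the M libraries. Its log2 fold change of GMC over M was 3.14 ± 0.28 (SE, limma adjusted p = 3.75e-07). The smaller THS_33855 (chr3:8720376-8720532) had 208, 229 and 204 in GMC, against 29.8, 7.83, 36.8 and 17.1 in M, a log2 fold change of 3.37 ± 0.42 (SE, limma adjusted p = 0.000374). The GC libraries, which carry no transgene with this promoter, had 338 to 415 on THS_33854 and 20.6 to 25.7 on THS_33855, so the high level was seen in the FAMA promoter line alone among the 5 lines. THS_29396, upstream of MUTE (chr3:1844605-1846496), had 420, 323 and 354 in GMC, against 2984, 1688, 2352 and 1647 in M, a log2 fold change of -2.53 ± 0.27 (SE, limma adjusted p = 6.42e-06). The last of the 4, THS_29395 (chr3:1843082-1843591), lies 77 bp upstream of the neighbouring gene MKP2. It had 114, 113 and 110.0 in GMC, against 91.2, 94.0, 184 and 128 in M, and the groups overlapped (log2 fold change -0.08 ± 0.23, SE, limma adjusted p = 0.815). These values match the labels of the lines, and reads from the transgene and from the native promoter cannot be told apart.

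**Figure D1:**
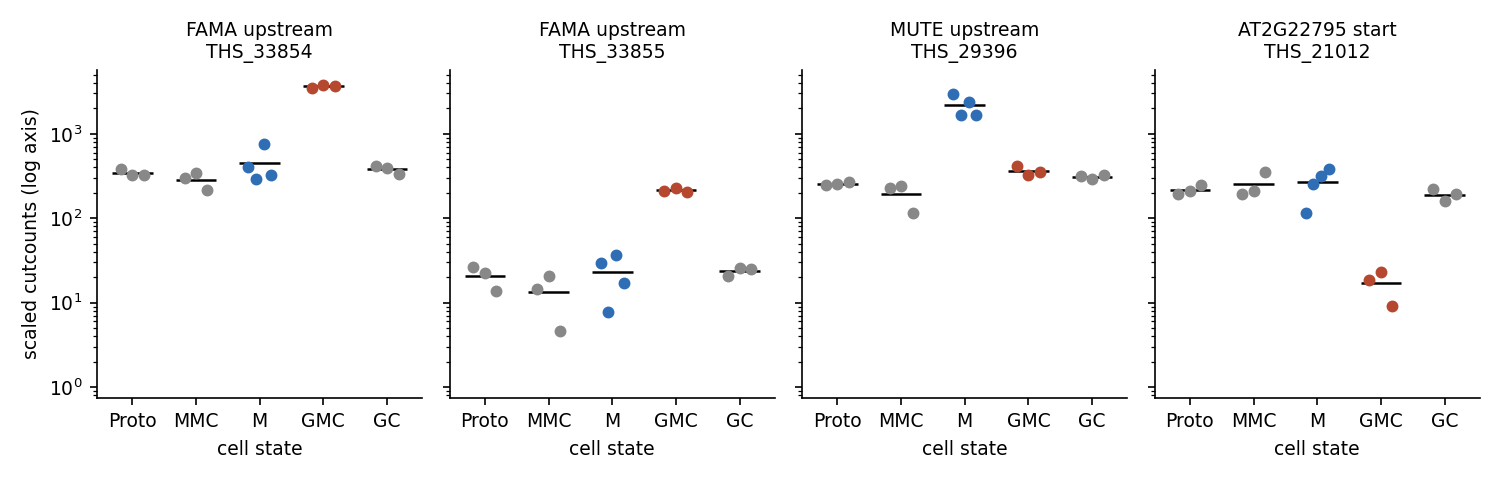
Scaled cutcounts (log axis) of 4 THSs in each library of the 5 cell states, with points for libraries and black lines for group means. THS_33854 and THS_33855 upstream of FAMA are high in the 3 GMC libraries alone, THS_29396 upstream of MUTE is high in the 4 M libraries alone, and THS_21012 is low in the 3 GMC libraries alone.

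Outside these promoters accessibility rose in GMC mainly inside genes and fell mainly at gene starts. Of 65351 THSs tested, 3132 (4.79%) were higher and 3838 (5.87%) were lower in GMC than in M at an adjusted p under 0.05, and without the promoter THSs these were 3130 and 3837. The THSs that rose had a median log2 fold change of 1.11 (10th to 90th percentile 0.85 to 1.47), and those that fell had a median of -0.91 (-1.12 to -0.76). Over all THSs the median was 0.02. The 3 GMC libraries all lay above the 4 M libraries in 7904 THSs (12.1%) and all below them in 5812 THSs (8.89%), and the groups did not overlap in 2662 of the 3130 THSs that rose and 2311 of the 3837 that fell. Since nuclei were pooled, more nuclei with an open site and a site more open in each nucleus cannot be told apart.

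The number of calls depended on single libraries. M replicate 1 was the M library nearest to GMC in 2702 of the 3130 THSs that rose and in 3565 of the 3837 that fell. Without it 11040 THSs (16.9%) rose and 14168 (21.7%) fell, and these contained all of the 3130 and 3837, with the same sign. Without M replicate 2, 3 or 4 or GMC replicate 1, 2 or 3, only 2 or 3 THSs rose and 2 to 4 fell, the promoter THSs included. Without MMC replicate 2 there were 5668 and 5513, without MMC replicate 3 there were 7934 and 7700, and without a library of Proto or GC, or MMC replicate 1, there were 1737 to 2232 and 2007 to 2660. All 3130 and 3837 THSs kept their sign in each of these fits. Leaving out a Proto, MMC or GC library does not alter the fold change of GMC over M, so no sign could change there. For the M and GMC libraries, the THSs had been chosen for large changes on these same libraries. The kept signs are therefore a description and no support for the calls. At an adjusted p under 0.01 only 2 THSs outside the promoters remained, THS_21012 and THS_35219, both lower in GMC, while 22835 THSs had an unadjusted p under 0.05 (limma). The calls are thus a set at the edge of the threshold, and single THSs named below carry that limit unless stated.

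The medians of the called THSs by library show where M replicate 1 and Proto lay. Over the 3130 THSs that rose, the median scaled cutcount was 76.3, 62.4 and 64.2 in the GMC libraries, against 47.0, 32.1, 26.6 and 21.5 in the M libraries. Over the 3837 that fell it was 82.5, 100 and 90.7 in GMC, against 109, 175, 184 and 245 in M. Both sets were chosen on these libraries, so these medians describe them and test nothing. The Proto libraries had 45.8, 49.0 and 48.2 over the THSs that rose, near M replicate 1. Over those that fell they had 132, 134 and 141, between M replicate 1 and M replicates 2 to 4.

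The 2 directions fell on different parts of genes. Coding exons held 1665 of the 3130 THSs that rose, or 53.2% (Wilson 95% interval 51.4 to 54.9), whereas they held 1.98% of those that fell and 15.2% of all THSs. The 400 bp upstream of starts held 1786 of the 3837 that fell, or 46.5% (45.0 to 48.1), against 6.45% (5.65 to 7.37) of those that rose and 25.5% of all THSs. Read the other way, 16.7% of THSs in coding exons rose and 0.764% fell, with a median log2 fold change of 0.63 over all 9948 of them. Of the 16646 THSs in the 400 bp upstream, 1.21% rose and 10.7% fell (median -0.29), and of the 6964 in 5' UTR exons 0.962% rose and 10.2% fell (median -0.32). Introns stood between, with 7.95% up and 2.26% down, and so did intergenic THSs, with 2.27% up and 4.58% down. Without M replicate 1 the 400 bp upstream held 9.91% of the THSs that rose and 42.5% of those that fell, coding exons held 42.5% of those that rose and 3.17% of those that fell, and intergenic THSs made up 24.2% of those that rose, against 16.1% with it.

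The change with distance from the nearest protein-coding start was sharp. From 400 bp upstream to the start 0.962% of THSs rose and 11.4% fell, and over the first 200 bp downstream these were 1.06% and 10.7%. From 200 to 1000 bp downstream 8.64% rose and 2.64% fell, and from 1000 to 3000 bp downstream 9.32% and 2.45%. Farther upstream 3.61% rose and 4.73% fell from 400 to 1000 bp, and 4.49% and 3.65% from 1000 to 3000 bp. Beyond 3000 bp upstream 6.73% rose and 3.56% fell.

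**Figure D2:**
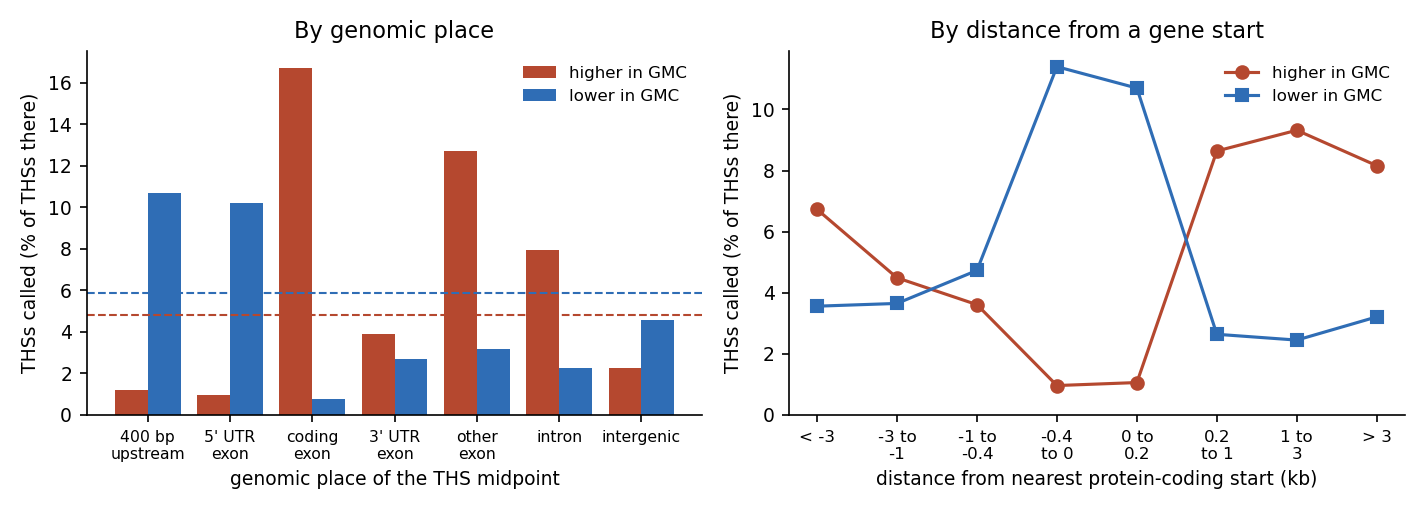
Percent of THSs called higher (red) and lower (blue) in GMC than in M, left by genomic place of the THS midpoint and right by distance from the nearest protein-coding start (kb, downstream positive). Dashed lines are the shares over all THSs, 4.79% higher and 5.87% lower. Higher calls peak in coding exons at 16.7% and lower calls at gene starts at 11.4%.

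Some genes had calls in both directions. Of 25204 protein-coding genes with a THS between 3000 bp upstream of the start and the gene end, 4047 had a THS that rose, 4761 had one that fell and 636 had both. Of these 636 genes, 385 had a THS that fell between 400 bp upstream and 200 bp downstream of the start, 404 had one that rose more than 200 bp downstream, and 251 (39.5%) had both of these, so most of the 636 did not have this arrangement. AHA1 (AT2G18960), a plasma membrane proton pump that drives stomatal opening, is one that did. Its 5' UTR THS_20114 had 106, 90.3 and 96.8 scaled cutcounts in GMC, against 120, 209, 341 and 308 in M (log2 fold change -1.21 ± 0.28, SE, limma adjusted p = 0.029). Its coding exon THS_20118, 2578 bp downstream of the start, had 114, 101 and 114 in GMC, against 84.5, 59.5, 36.8 and 39.2 in M (1.06 ± 0.28, SE, limma adjusted p = 0.0305). The groups did not overlap in either THS. HEMA1 (AT1G58290), which makes glutamyl-tRNA reductase for chlorophyll synthesis, had the same arrangement. Its coding exon THS_11446 had 48.0, 32.8 and 55.0 in GMC, against 19.2, 18.8, 12.3 and 19.9 in M (1.31 ± 0.29, SE, limma adjusted p = 0.0281), and its 5' UTR THS_11447 had 129, 118 and 99.8 in GMC, against 120, 228, 276 and 420 in M (-1.04 ± 0.29, SE, limma adjusted p = 0.0325). In the 5' UTR of HEMA1 M replicate 1 lay within the GMC range.

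The directions also separated by how open, how long and how GC-rich a THS was. THSs that rose had a median of 47.0 scaled cutcounts, 183 bp and 43.0% GC, those that fell 142 scaled cutcounts, 304 bp and 35% GC, and all THSs 54.5 scaled cutcounts, 230 bp and 34.7% GC. The THSs were put in 10 equal bins by accessibility. The share that fell was 0.0765% in the lowest bin and 20.7% in the highest, and the share that rose was 2.49% in the lowest bin, 8.49% in bin 4 and 0.398% in the highest. In 10 equal bins by GC content the share that rose was 1.19% in the lowest bin and 19.2% in the highest, and the share that fell was 8.88% in bin 6 and 0.918% in the highest. Place, accessibility and GC content move together here, and their separate parts were not tested.

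**Figure D3:**
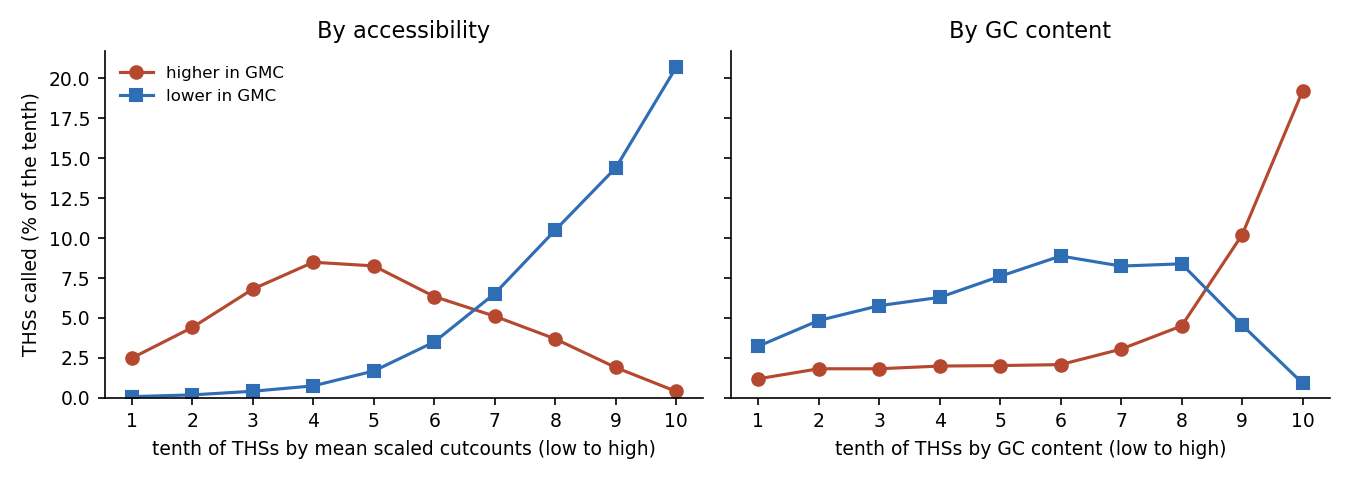
Percent of THSs called higher (red circles) and lower (blue squares) in GMC than in M in 10 equal bins of THSs by mean scaled cutcounts (left) and by GC content (right), each from low to high. Lower calls reach 20.7% in the most accessible bin and higher calls 19.2% in the most GC-rich bin.

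Measured per library, the difference in the share of signal in the most open THSs depended on the cutoff. The share of the 1% most accessible THSs was the planned main measure, and that of the 10% most accessible was its alternative. The 10% most accessible THSs held 41.7, 43.1 and 42.0% of the scaled cutcounts of the GMC libraries, against 44.8, 47.9, 46.7 and 45.8% of the M libraries. The means were 42.3 ± 0.76% in GMC and 46.3 ± 1.32% in M (SD), a difference of -4.04 points, and the groups did not overlap (exact permutation test over 35 splits, two-sided, p = 0.0286, the smallest this design allows). The 1% most accessible THSs held 22.4, 22.2 and 21.6% in GMC, against 25.7, 18.4, 20 and 12.1% in M. Here the groups overlapped and the difference went the other way (3.0 points, exact permutation p = 0.457). The most accessible THS alone had a mean of 287200 scaled cutcounts over the 7 libraries, whose totals were 6094523 to 7508374. Its part in these shares, and in the shares by place below, was not tested.

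Coding exons held 13.8, 12.3 and 12.4% of the scaled cutcounts in GMC, against 11, 9.17, 8.98 and 8.17% in M (difference 3.48 points, exact permutation p = 0.0571, 0.2 when adjusted over 7 places). The 400 bp upstream of starts held 35.2, 36.2 and 35.9% in GMC, against 36.7, 38.2, 38.2 and 36.9% in M (difference -1.72 points, exact permutation p = 0.0571, adjusted 0.2). In both places the groups did not overlap, but no place passed the test after adjustment. M replicate 1 was the M library nearest to GMC in each of these measures but the 1% share. With the share of the 10% most accessible THSs as a covariate of the limma fit, 1 THS rose and 2 fell, and the part of this share in the calls was not tested.

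**Figure D4:**
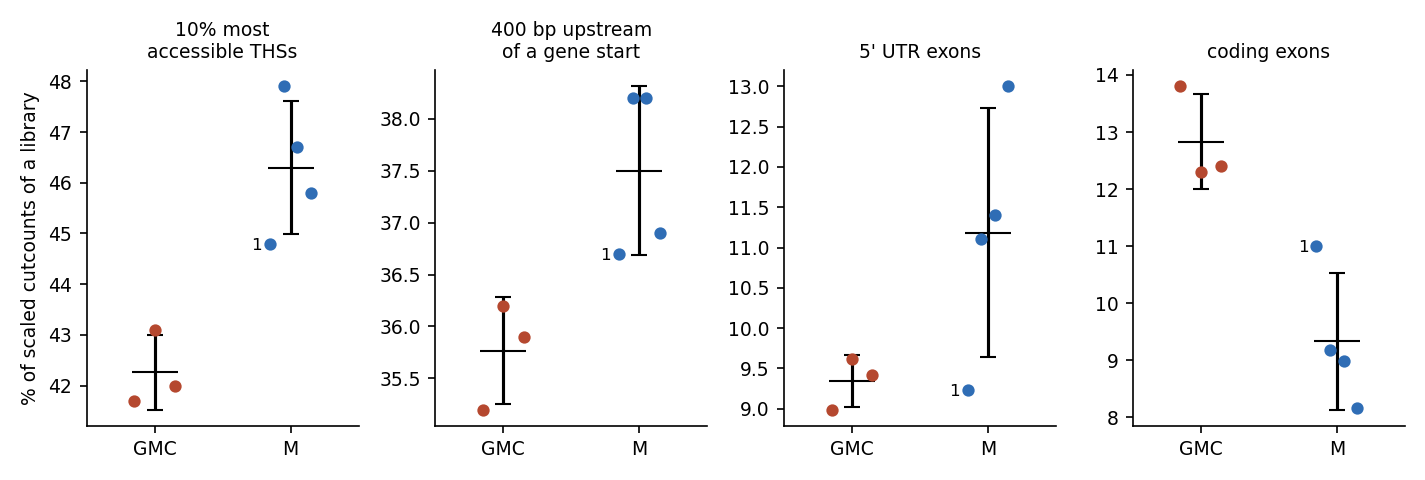
Percent of the scaled cutcounts of each GMC (red) and M (blue) library that lay in the 10% most accessible THSs, the 400 bp upstream of gene starts, 5' UTR exons and coding exons, with mean and SD as black bars. The number 1 marks M replicate 1, and the axes do not start at 0. GMC lies below M in the first 2 panels and above it in coding exons, and M replicate 1 lies within the GMC range in 5' UTR exons.

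Pseudogenes were a further place of gain. Of 707 THSs in pseudogene exons 198 (28.0%) rose and 7 (0.99%) fell, and the 198 lay in 177 pseudogenes with a median GC content of 46.2%. Pseudogenes can have near-identical copies elsewhere in the genome, so reads could have been placed on the wrong copy. Whether these have such copies was not tested, and these THSs are uncertain. The 5 chromosomes had 4.46 to 5.18% of THSs up and 5.30 to 7.22% down. With each chromosome cut into 10 equal bins, in the 6 bins with under 0.5 of the mean number of THSs, 145 of 1459 THSs (9.94%) rose and 121 (8.29%) fell, against 4.67% and 5.82% in the other 42 bins.

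Among the 10 largest gains outside the promoters, 7 lay in pseudogenes. The largest, THS_35454 in AT3G42766 (chr3:14864765-14865130), had 150.2, 159 and 149.7 scaled cutcounts in GMC, against 77.8, 64.2, 14.3 and 19.3 in M (log2 fold change 2.12 ± 0.62, SE, limma adjusted p = 0.0455). THS_35049 in AT3G28315, whose sequence is shown above, had 102, 73.1 and 71.3 in GMC, against 47.0, 19.6, 8.17 and 18.8 in M (2.0 ± 0.43, SE, limma adjusted p = 0.0281). Outside pseudogenes the largest was THS_59752, in a coding exon of ADR1-L3, a member of the ADR1 family of helper proteins in plant immunity. It had 57.9, 57.5 and 55.0 in GMC, against 32.6, 17.2, 4.09 and 11 in M (2.05 ± 0.50, SE, limma adjusted p = 0.0301). In each of these M replicate 1 was the highest and M replicate 3 the lowest M library, and the groups did not overlap.

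The largest loss stood far from all others. THS_21012 (chr2:9699869-9700106) spans the start of AT2G22795, which encodes an uncharacterized protein. It had 18.5, 23.0 and 9.17 scaled cutcounts in GMC, against 114, 254, 315 and 384 in M. The log2 fold change was -3.86 ± 0.33 (SE, limma adjusted p = 1.14e-06). Proto libraries had 192 to 245, MMC 196 to 355 and GC 158 to 219, so the site was open in the states before and after GMC. It was the only THS of 65351 in which all GMC libraries lay more than 4 times below each of the 13 other libraries. It was called in all 27 alternative fits that tested it, and without M replicate 1 its log2 fold change was -4.22. Its neighbours did not share the drop. THS_21011, in a coding exon, had 209, 189.6 and 147 in GMC, against 125, 87.7, 108 and 59.6 in M (0.96, limma adjusted p = 0.0695), and THS_21013 had 134, 87.8 and 112 in GMC, against 99.9, 110.4, 100.1 and 125 in M (0.02, limma adjusted p = 0.961). The next, THS_21014, had a log2 fold change of -1.19 (limma adjusted p = 0.029). Only the FAMA promoter line had the low value, and whether it belongs to the GMC state or to that line cannot be told apart here.

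The other 9 large losses were more moderate, and 5 of them lay in a 5' UTR or the 400 bp upstream of a start. THS_35219, between genes and 3528 bp from the start of HB34 (AT3G28920, a zinc finger homeodomain protein), had 57.9, 80.4 and 55.0 in GMC, against 118, 208, 219 and 316 in M (-1.66 ± 0.26, SE, limma adjusted p = 0.00845). THS_07920 lies 79 bp upstream of NAC13 (AT1G32870), a transcription factor of the mitochondrial stress response. It had 25.9, 43.5 and 39.7 in GMC, against 52.8, 103, 121 and 199 in M (-1.56 ± 0.30, SE, limma adjusted p = 0.0281). THS_23465, upstream of CLE4, a gene of the CLE peptide signals, had 22.2, 73.1 and 46.9 in GMC, against 73.9, 106, 200.2 and 256 in M (-1.72 ± 0.40, SE, limma adjusted p = 0.0292). For CLE4 GMC replicate 2 and M replicate 1 nearly touched. The remaining 6 of the 10 lay near TRFL1, AT2G16930, AT3G45252, AT4G09300, GT72B1 and AT1G07710, with log2 fold changes of -1.66 to -1.54.

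Some genes had several calls in the same direction. The window of a gene reaches 3000 bp upstream and can take in THSs of a neighbour. At least 3 THSs rose at 41 genes and fell at 123. AT5G07570, a glycine and proline-rich protein gene, gained in 5 of 6 THSs (mean log2 fold change 1.17), 4 of which its neighbour AT5G07572 shares. AT1G02460, a pectin lyase-like gene, gained in 4 of 6 (mean 1.23). The GMC and M groups did not overlap in 3 of the 5 and in 2 of the 4. RKF3, a receptor-like kinase gene, and its neighbour AT2G48000 shared 4 THSs that rose (mean 1.30), and in all 4 GMC lay above M. SKU5, which encodes a cell-wall protein that directs growth, lost in 5 of 11 THSs (mean -1.19), and in all 5 GMC lay below M. APS1, the ATP sulfurylase of sulphate assimilation, lost in 5 of 7 (mean -0.83) and the hexokinase-like gene HKL1 in 4 of 6 (mean -1.11). The neighbours GRXC2 and CRK42 shared 4 that fell (mean -1.04). The groups did not overlap in 4 of the 5 at APS1, 3 of the 4 at HKL1 and 1 of the 4 at GRXC2 and CRK42.

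Genes of the early stomatal lineage, which start and pattern the asymmetric divisions, had more THSs that fell than rose. Of the 94 THSs at 21 such genes 14 fell (14.9%) and 1 rose (1.06%), with a median log2 fold change of -0.27, beside 6.1% down, 4.76% up and a median of 0.01 over the 58045 THSs at protein-coding genes. Without M replicate 1 these were 35 down and 12 up, beside 12884 down and 9851 up among the 58045. The 94 THSs had a summed level of 8549 to 9037 scaled cutcounts in GMC, against 8824, 12200, 12660 and 15840 in M. M replicate 1 thus lay within the GMC range. The list of mesophyll markers had a larger share down, 4 of 19 THSs (21.1%), with a median of -0.32. ICE1, also called SCREAM, is the partner of SPCH, MUTE and FAMA. Its THS_34598 (chr3:9835902-9836091, 717 bp upstream) had 43.1, 46.0 and 48.9 scaled cutcounts in GMC, against 72.0, 102, 123 and 121 in M (-1.14 ± 0.22, SE, limma adjusted p = 0.0281). ER encodes the receptor kinase ERECTA, which restricts stomatal divisions. THS_22033, 208 bp upstream of ER, had 49.2, 60.7 and 58.1 in GMC, against 82.6, 131, 141 and 230 in M (-1.28 ± 0.30, SE, limma adjusted p = 0.029). THSs of the kinase cascade below the receptor also fell. THS_32971 at the start of MKK5 had 99.7, 126 and 102 in GMC, against 135, 249, 239 and 299 in M (-1.02 ± 0.25, SE, limma adjusted p = 0.0291), and THS_36106 upstream of MPK3 had 150.2, 222 and 188 in GMC, against 218, 345, 474 and 522 in M (-1.0 ± 0.26, SE, limma adjusted p = 0.031). In MPK3 GMC replicate 2 lay just above M replicate 1, whereas in ICE1, ER and MKK5 the groups did not overlap.

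In the window of MKK4 a THS in the 400 bp upstream of a start fell (-0.75) and a THS in a coding exon rose (1.41). The rising THS lay over 1000 bp upstream of the MKK4 start, since no THS of the list rose in a window of 1000 bp. Its coding exon is thus that of a neighbour and not of MKK4. EPF2, the peptide that limits entry into the lineage, had 2 THSs that fell (-1.06 and -0.82), and THSs of MPK6, HDG2 and TCX2 fell as well. The lineage genes SPCH, TMM, BASL and POLAR, which drive or polarize early divisions, had no call. These were named after their values were seen. The strongest THS upstream of SPCH had a log2 fold change of -0.56 ± 0.25 (SE, limma adjusted p = 0.108, and 0.00764 without M replicate 1). The strongest THS of TMM had -0.19 ± 0.25 (limma adjusted p = 0.607), that of POLAR -0.17 ± 0.23 (limma adjusted p = 0.608) and that of BASL -0.003 ± 0.22 (limma adjusted p = 0.993).

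Genes of commitment and of the symmetric division include cyclins, their kinases and the brakes on them. Among their 67 THSs 4 fell and none rose, a share of 5.97% down beside 6.1% over all genes. Without M replicate 1, 15 of the 67 fell and 8 rose, where 21.7% of all THSs fell and 16.9% rose. THS_36886, at the start of CDKA;1, the main cell cycle kinase, had 29.5, 43.5 and 46.9 in GMC, against 58.6, 61.1, 94.0 and 113 in M (-0.98 ± 0.27, SE, limma adjusted p = 0.032). THS_65199 at the D-type cyclin gene CYCD3;2 had 19.7, 38.6 and 33.6 in GMC, against 54.7, 46.2, 71.5 and 60.7 in M (-0.94, limma adjusted p = 0.0362), but it lies 53 bp upstream of the neighbouring gene SKIP2. THS_18323 at MYB88 had 55.4, 75.5 and 54.0 in GMC, against 73.9, 92.4, 125 and 137 in M (-0.76, limma adjusted p = 0.0473), and GMC replicate 2 lay above M replicate 1. The CDKB1;2 THS that fell (-0.80, limma adjusted p = 0.0481) likewise lies 143 bp upstream of its neighbour AT2G38610. FLP, CYCD5;1, the CYCA2 cyclins and RBR1 had no call.

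Genes of guard cell function moved in both directions, with 7 of 138 THSs up (5.07%) and 8 down (5.80%), close to the 4.76% and 6.1% over all genes. Without M replicate 1 these were 12 up and 34 down of the 138, where 16.9% of all THSs rose and 21.7% fell. All 7 gains were in coding exons or introns of these genes or of neighbours in their windows, at AHA1, ABI1, HAB1, TGG2, PHOT2, MPK12 and CA1, and none was upstream of a start. HAB1 and ABI1 are phosphatases of abscisic acid signalling, PHOT2 is a blue light receptor and TGG2 a myrosinase. Losses included THS_55389 at the anion channel gene SLAH3, with 83.7, 111 and 114 in GMC, against 129, 207, 188 and 345 in M (-0.99, limma adjusted p = 0.0301). They also included THSs of GC1, ABI1, BLUS1, PHOT1 and CA4, and one at MPK12 that lies 33 bp upstream of BPS2. The potassium channel KAT1, the anion channel SLAC1 and the kinase OST1, which carry out or control closing and opening, had no call. The strongest THSs of these had log2 fold changes of -0.58, -0.49 and -0.43 (limma adjusted p = 0.0931, 0.148 and 0.199).

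HD-ZIP IV factors and cuticle genes, which mark the epidermis and build its wax and cutin layer, had 11 of 76 THSs down (14.5%) and none up. The median log2 fold change was -0.41. The 76 THSs had a summed level of 7042 to 7180 scaled cutcounts in GMC, against 7015, 10230, 11760 and 14580 in M. M replicate 1 thus lay below all GMC libraries. Without M replicate 1, 38 of the 76 fell and 5 rose, where 21.7% of all THSs fell and 16.9% rose. THS_09948 in the 5' UTR of CER5 (ABCG12, AT1G51500), a wax exporter, had 123, 154 and 169 in GMC, against 155, 322, 423 and 549 in M (-1.15 ± 0.29, SE, limma adjusted p = 0.0298). A second CER5 THS fell by 1.08 on the log2 scale. In CER5 GMC replicate 3 lay above M replicate 1. THSs of HDG1, BDG, LACS2, CUT1, LTP1, GPAT8 and ATML1, a factor of epidermal identity, also fell. The ATML1 promoter drives the tag in neither line of this comparison.

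In the other lists the counts were small, and gains lay in gene bodies of these genes or of neighbours in their windows. Over the 58045 THSs at protein-coding genes 4.76% rose and 6.1% fell. Without M replicate 1, 16.9% of all THSs rose and 21.7% fell. NIN-like proteins, which respond to nitrate, had 5 of 61 THSs up (8.2%) and 2 down (3.28%), and 15 up and 6 down without M replicate 1. THS_12925 near NLP6 had 76.3, 76.3 and 76.4 in GMC, against 54.7, 34.5, 24.5 and 32 in M (1.11 ± 0.25, SE, limma adjusted p = 0.0281), but it lies in a coding exon of the neighbour AT1G64520. BPC factors, which bind GA repeats, and Polycomb subunits, which lay down a repressive histone mark, had 4 of 42 up (9.52%) and 3 down (7.14%). Without M replicate 1 these were 9 up and 10 down. Among the 4 gains, THS_62725 and THS_62726 were counted for the Polycomb gene MSI1 but lie in its neighbour AT5G58210. In BPC3 the coding exon THS_13941 had 94.8, 63.2 and 76.4 in GMC, against 49.9, 39.2, 22.5 and 22.1 in M (1.27, limma adjusted p = 0.0295). In CLF, a Polycomb methyltransferase gene, THS_21264 had 134, 149 and 135 in GMC, against 148, 296, 307 and 417 in M (-0.97, limma adjusted p = 0.0336). The CLF groups overlapped, and this THS lies 11 bp upstream of the start of the neighbour AT2G23370. Chlorophyll and GATA genes had 1 up (2.38%) and 3 down (7.14%) of 42. Brassinosteroid and auxin genes had 2 up (2.53%) and 4 down (5.06%) of 79. Light receptors and their regulators had 2 up (3.64%) and 3 down (5.45%) of 55. Without M replicate 1 the counts up and down of these lists were 6 and 9, 12 and 24, and 11 and 15. All 3 losses among light genes were at CRY1, a blue light receptor (-0.99, -1.06 and -1.02). TIR1, the auxin receptor, had the largest gain of these lists, in a coding exon, with 52.9, 60.7 and 57.0 in GMC, against 22.1, 31.3, 8.17 and 16 in M (1.65 ± 0.33, SE, limma adjusted p = 0.0281).

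Housekeeping and stress genes gave few calls, beside 4.76% up and 6.1% down over the 58045 THSs at protein-coding genes. Of 18 housekeeping THSs 1 rose, the coding exon THS_32378 of ACT2 (AT3G18780), with 84.9, 68.1 and 57.0 in GMC, against 42.2, 26.6, 26.6 and 23.2 in M (1.23 ± 0.26, SE, limma adjusted p = 0.0281). Stress genes had 3 of 53 up (5.66%), at HSP101 and WRKY33 in coding exons, and 3 down (5.66%). Over the 11 lists of gene function together, 25 of the 26 THSs that rose lay in coding exons or introns. None of the 26 lay in the 400 bp upstream or a 5' UTR, and 37 of the 55 that fell did. The marker lists of other cells, given below, differed in their gains. Of their 12 THSs that rose 5 lay in coding exons or introns, 6 were intergenic and 1 lay in the 400 bp upstream. Of their 7 that fell 4 lay upstream or in a 5' UTR. Among all 3130 THSs that rose, 53.2% lay in coding exons and 10.2% in introns.

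**Figure D5:**
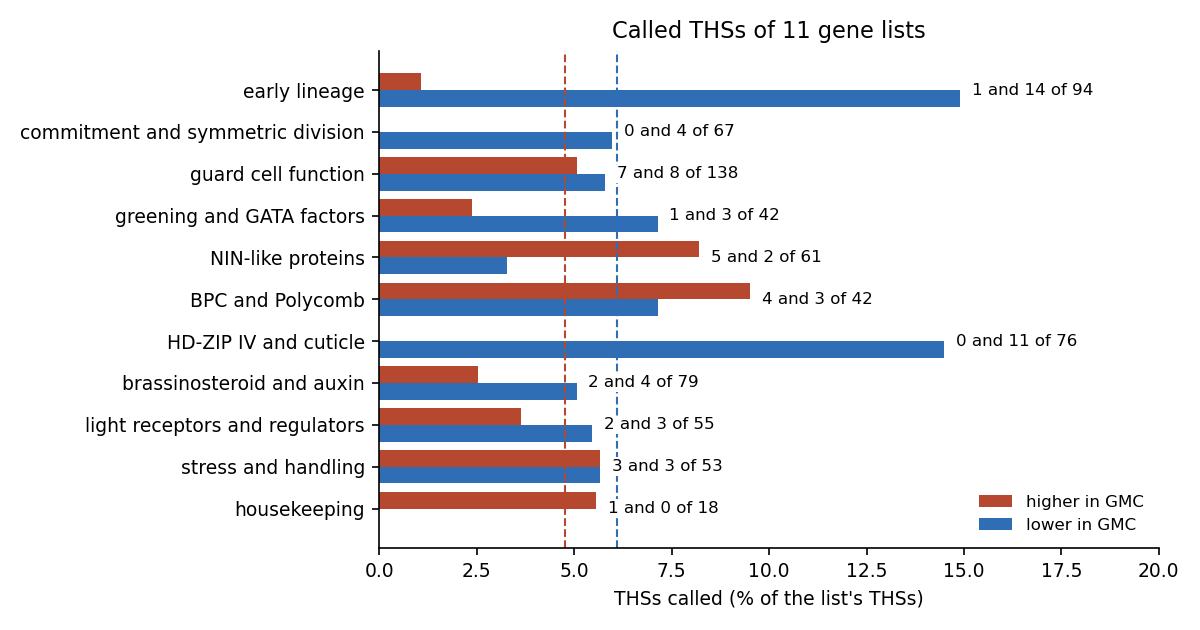
Percent of the THSs of 11 gene lists called higher (red) and lower (blue) in GMC than in M, with the counts and the number of THSs of each list printed beside the bars. Dashed lines are the shares over the 58045 THSs at protein-coding genes, 4.76% higher and 6.1% lower. Among these 11 lists the shares that fell are largest for early lineage (14.9%) and HD-ZIP IV and cuticle genes (14.5%), and the mesophyll markers, which are not drawn, had 21.1%.

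THSs of markers of other seedling cells had cutcounts in all 7 libraries and none was at 0, which does not show that they were open, since THSs at APL and CUC2 had only 4.09 scaled cutcounts in M replicate 3. Over 7 marker lists, 12 THSs rose and 7 fell. The shares over the 58045 THSs at protein-coding genes were 4.76% up and 6.1% down. The 19 mesophyll THSs had a summed level of 2714 to 2772 scaled cutcounts in GMC and 2761 to 5795 in M, with 4 down (21.1%) and 1 up. THS_13656 upstream of RBCS1A, the small subunit of Rubisco, had 238, 258 and 232 in GMC, against 240.0, 594, 578 and 791 in M (-1.06 ± 0.30, SE, limma adjusted p = 0.0334), and M replicate 1 lay within the GMC range. The 18 shoot meristem THSs summed to 1329 to 1427 in GMC and 1206 to 1565 in M. Of them 4 rose (22.2%), 3 at CUC2 and 1 at CLV1, and 1 fell (5.56%), at WUS. Trichome THSs had 3 of 40 up (7.5%), and root epidermis THSs 2 up (8.33%) and 1 down (4.17%) of 24. Xylem THSs had 1 up and 1 down of 20 (5.0% each), phloem THSs 1 up of 21 (4.76%) and endodermis THSs no call among 15. In the last, THS_38290 at SCR had a log2 fold change of -0.64 (limma adjusted p = 0.0717) and THS_49451 at SHR 0.20 (limma adjusted p = 0.553). The part of other cell types in the results was not tested.

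The words searched in equal windows, the central 150 bp of each THS, differed most for TGGGCC, the site II element found in promoters of genes for ribosomal proteins and cell growth. It was found in 83 of the 3130 THSs that rose (2.65%), in 848 of the 3837 that fell (22.1%) and in 9.55% of all THSs. Within the 400 bp upstream of starts it was found in 1.98% of those that rose, 27.2% of those that fell and 16.6% of all. Of all THSs that hold it 13.6% fell, against 5.06% of those without it. CACGTG, the G-box, was found in 3.26%, 9.85% and 5.86% of the rising, falling and all THSs, and GAGAGAGA, the GA repeat bound by BPC proteins, in 1.69%, 6.33% and 3.65%. Within the 400 bp upstream CACGTG was found in 3.47%, 10.4% and 7.37%, but GAGAGAGA in 3.96%, 4.82% and 3.74%, so its difference was small at equal place. The GATA word AGATAA was found in 10%, 14.3% and 13.7%, and within the 400 bp upstream in 14.4%, 14.6% and 14.7%. The epidermal L1 box TAAATGTA (0.575%, 1.64% and 1.37%), AAACCCTA (1.34%, 2.03% and 1.67%), TTTCCCGC (0.224%, 0.443% and 0.205%), CAATNATTG (0.511%, 0.808% and 0.716%), TTGACC (8.50%, 9.46% and 9.25%) and TTCNNGAA (4.70%, 4.25% and 4.37%) differed less in absolute terms. A match is a description of the letters, not a binding site, and GC content and place differ between the sets.

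GC, the next and last state, was also set against MMC, an earlier state. The means of GC and MMC do not enter the fold change of GMC over M, but these libraries entered the estimate of the spread and so had a part in which THSs were called, and this contrast is given as a description. GC lay above MMC in 3087 of the 3130 THSs that rose in GMC (98.6%) and below it in 3751 of the 3837 that fell (97.8%), whereas it lay above MMC in 50.5% of all THSs. Over the first set the median scaled cutcount was 62.8, 58.5 and 55.2 in the GC libraries, against 35.9, 52.2 and 21.8 in the MMC libraries, and over the second it was 113, 109 and 124 in GC, against 156, 135 and 213 in MMC. In both, MMC replicate 3 lay farthest from GC. The median log2 difference of GC over MMC was 0.73 in the first set, -0.53 in the second and 0.01 over all THSs. Single THSs did not carry this contrast, since only 3 of 65351 (0.00459%) were called between GC and MMC (limma). The share of scaled cutcounts in the 10% most accessible THSs was 46.3, 44.4 and 44.8% in GC, against 43.9, 46.6 and 45.0% in MMC, and here the groups overlapped. With the share of the 1% most accessible THSs as a covariate, the medians were 0.16 and -0.06. Without any 1 library in turn they lay between 0.42 and 1.01 and between -0.66 and -0.34.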

How the data were processed

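INTACT ATAC-seq libraries of 5 cell states were assigned to states and replicate numbers by their labels. Per the labels and the study's methods, the authors used bcl2fastq, Bowtie2 on TAIR10, MACS2 and bedtools, removed centromeric reads, merged peaks with published open regions, and divided cutcounts by DESeq2 size factors. The signal values deposited by the authors are these scaled cutcounts, and in all 16 libraries 100% of them were whole multiples of 1 step within 0.1 of a step. A further value column, of which there was 1, matched no sample and was not used.

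Values were fitted as log2(value + 1), without a filter, in limma 3.58.1 (R 4.3.3, with version 1.17.8 of data.table), giving every one of the 5 states its own mean and moderating the variances with a trend and robustly. The contrast GMC minus M was adjusted by Benjamini-Hochberg over 65351 THSs at 0.05, and fold changes understate low THSs. All states entered so as to share 1 estimate of the spread. The script was tested on simulated data. An edgeR fit of recovered counts had been listed as an alternative and was not run, since in 8 libraries the smallest value was above 1 step and a check therefore did not accept the values as recovered reads. ImpulseDE2, which the authors used, was not repeated. Replicates are separate libraries, and p-values measure the spread between them. Shares of cutcounts per library were compared by exact permutation over 35 splits, and intervals of shares are Wilson 95% intervals, which cover counting error only.

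Genomic place used the midpoint of a THS and the RefSeq annotation of TAIR10.1, whose chromosomes hold all THSs, where the upstream 400 bp took precedence. A gene's THSs had their midpoint between 3000 bp upstream of its start and its end. Named THSs were those of the MUTE and FAMA promoters, the 10 largest called changes in each direction with a mean of at least 20 scaled cutcounts and groups that did not overlap, those of the 5 genes with the most calls in each direction, and up to 4 called THSs of each list with the smallest adjusted p, or the strongest THS of up to 2 genes where none was called. Of 189 list genes all 189 were found by ID. The members and lists were chosen with earlier results of these data known. Sequences came from RefSeq, and a sequence was cut to the part outside UTRs. Python 3.11.15 was used, with pandas 2.3.3, numpy 2.4.6, scipy 1.17.1 and matplotlib 3.10.9.

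Alternatives were other scalings, pseudocounts of 0.5 and 5, a minimum of 10 scaled cutcounts, only the M and GMC libraries, the replicate number as a block, the share of reads in peaks (FRiP) as a covariate, library weights, no trend, a threshold of 0.01, other rules of place and leaving out each library. Added after seeing the data were covariates for the shares of the 1% and 10% most accessible THSs and the places, words and lists without M replicate 1.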

Additional observations from a re-analysis of the deposited data

Results flagged for a closer look

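Within the 4 M libraries, 7 of 93 named groups of values had a library far from the others by Dixon's criterion, which chance alone meets in about 1 in 20 groups. M replicate 1 was that library in 5 of the 7, and in each it lay on the side of the GMC libraries. It was highest at THS_35412 (46.1 scaled cutcounts, pseudogene AT3G42236), THS_61254 (70.1, TRY) and THS_17442 (18.2, APL), and lowest at THS_48168 (190.1, BAK1) and THS_38290 (205.5, SCR). M replicate 4 was highest at THS_41740 (82.3, AT4G09300), and M replicate 3 was lowest at THS_11446 (12.3, HEMA1).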

How the results depend on the processing

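All 3130 THSs that rose and all 3837 that fell kept their sign under every alternative that tested them. This is no support for the calls, since the THSs were chosen for large changes on the same libraries. Leaving out a Proto, MMC or GC library could not change a sign at all. The counts of calls, 3132 up and 3838 down, did not hold. They were 0 and 1 with scaling by listed reads, 1147 and 1218 with loess normalization, 191 and 211 with the replicate number as a block, 2 and 3 with FRiP as a covariate, 3 and 2 without trend and robust, 13299 and 14897 with library weights, 1 and 2 with the 10% share as a covariate, and 2 and 3 at a threshold of 0.01. With only the M and GMC libraries 2047 fell. Without single libraries they ranged from 2 to 11040 and from 2 to 14168. The cause was not tested. The listed reads and FRiP could not be matched to 1 library, M replicate 1, whose cutcounts exceed its listed reads, so both fits are uncertain. Same-numbered M and GMC libraries had correlated deviations of 0.253, 0.00305 and -0.0103, so the numbers were not taken as pairs.

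Of the MUTE and FAMA promoter THSs 3 were called in the main analysis and without each library, and 0 with listed reads. The medians of GC over MMC, 0.73 and -0.53, were 0.25 and -0.15 with FRiP, 0.30 and -0.96 with listed reads and 0.16 and -0.06 with the 1% share as a covariate, and the second was -0.23 with loess and -0.25 with quantile normalization. Without single libraries they ranged from 0.42 to 1.01 and from -0.66 to -0.34. The difference in the share of the 1% most accessible THSs, 3.0 points (0.7 to 5.21 without single libraries), became -4.04 points with the 10% most accessible. The 400 bp upstream held 4.22% of rising and 41.0% of falling THSs with the gene body counted first, 10.5% and 67.0% with any overlap of 1 bp, and 9.91% and 42.5% without M replicate 1. An edgeR fit was not run. Over the 84 named THSs and all alternatives, calls stayed on their side of the threshold in 1519 cases, were lost in 982 and gained in 3.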
